A study of Mus musculus with 18 samples.

Results

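The genes described here are 30 enzymes and regulators of sterol and fatty acid synthesis, chosen by gene symbol, of the 55536 Ensembl genes in the count table. They comprise 7 genes of the mevalonate steps, 11 of the steps from the making of squalene to cholesterol, 4 regulators and transport proteins, and 8 of fatty acid synthesis and desaturation. All 30 were measured, and all 30 passed the low-count filter in every comparison. Their RNA levels were followed in 18 libraries of mouse CD8+ T cells taken from spleen and lymph nodes. Every library carries the OT-I genotype, a transgenic T cell receptor that recognises the ovalbumin peptide SIINFEKL. The 2 Tra2bKO libraries came from cells edited at Tra2b, a splicing regulator, and were taken at day 4 of stimulation by SIINFEKL together with anti-OX40 and anti-41BB, antibodies to a pair of costimulatory receptors. The 8 control libraries had a scrambled sequence in place of the Tra2b edit and the same stimulation and day, and the 8 naive libraries were taken at day 0. Control and naive libraries therefore differ in stimulation, day and scrambled sequence together. The labels do not say whether the libraries of a group came from separate animals, so each p-value rests on library-to-library spread, part or all of which may be technical.

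Cholesterol is built from acetyl-CoA through mevalonate, isoprenoid diphosphates and squalene, and fatty acids are built from acetyl-CoA and malonyl-CoA and then elongated and desaturated. Both pathways are under transcription factors called SREBPs, which are held in the endoplasmic reticulum by INSIG proteins when sterols are plentiful and are cut free when sterols are scarce. Activated T cells are known for switching on SREBP-driven lipid synthesis as they grow and divide.

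Total counts were 79197461 and 93495846 in the Tra2bKO libraries, and ran from 73735681 to 93972513 in the control and from 68249844 to 86932452 in the naive libraries. Levels are given as CPM, counts scaled to library size on TMM factors. Tra2b itself stood at 361 and 370 CPM in the Tra2bKO libraries, against 338 to 525.9 CPM in the controls and 248 to 352 CPM in the naive libraries. This gene count includes reads of any edited transcript and is no check of the edit. All 6 markers of the labelled cell type (such as Cd8a and Cd3e) were present in every library, with sums of 3423 and 3932 CPM in the Tra2bKO, 3448 to 4279 CPM in the control and 5356 to 6430 CPM in the naive libraries. Of these 6, 5 were called lower in the control than in the naive libraries, and 1 lower in the Tra2bKO than in the control libraries, with 0 higher. Trac stood at 854 and 767 CPM in the Tra2bKO libraries, against 1054 to 1340 CPM in the controls. Sums of the B cell list were 14.4 to 28.6 CPM in the controls and 71.0 to 143.9 CPM in the naive libraries, and 5 of the 7 measured genes were lower in the controls with 0 higher. The dendritic cell and macrophage list summed to 38.5 to 63.5 CPM in the controls and 109 to 200.2 CPM in the naive libraries, with 8 of 8 measured genes lower and Siglech at 0 in every control. The NK cell list summed to 49.7 to 178 CPM in the controls and 236 to 572 CPM in the naive libraries, with 6 of 6 lower and Klra8 at 0 in every control. The part of these other cells in the differences between control and naive libraries was not tested.

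Most of the sterol and fatty acid synthesis genes were higher in the stimulated control libraries than in the naive libraries. Of 30 genes, 22 rose (73.3%), 2 fell, and 6 did not pass the test (edgeR's quasi-likelihood test, Benjamini-Hochberg adjusted p under 0.05 over all genes). Over all 17078 genes tested, 71.5% were called, 32.5% being higher and 39.0% lower. The median log2 fold change was 0.56 for the 30 genes and -0.08 for all genes. The 8 control and 8 naive libraries did not overlap for 17 of the genes that were higher, against 20.1% of all genes tested, and for Elovl6 among the lower ones, against 22.2%.

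**Figure D1:**
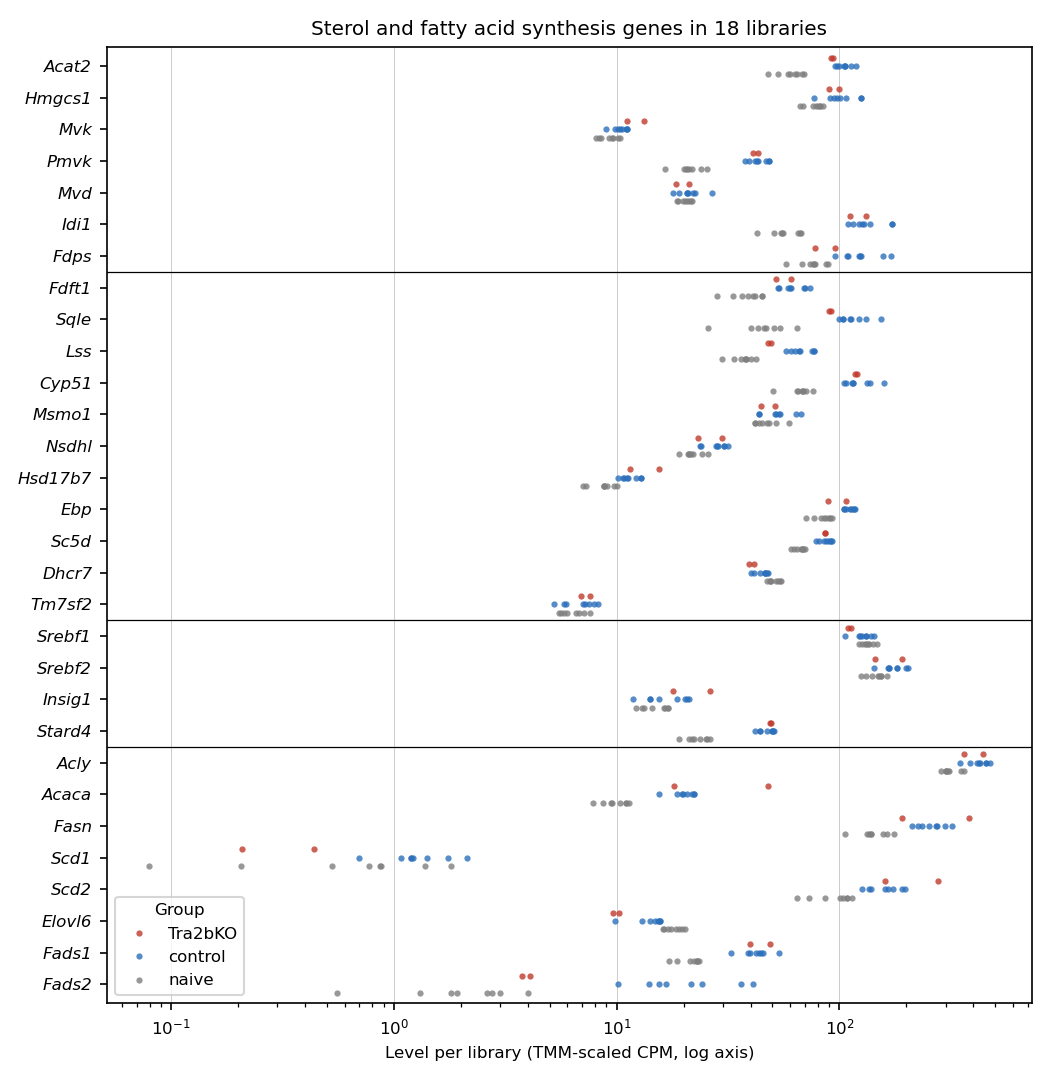
Level of each of the 30 genes in every library, in TMM-scaled CPM on a log axis, with Tra2bKO, control and naive libraries as red, blue and grey points and lines between the 4 groups of genes. Control libraries lie to the right of naive libraries for most genes, and the Tra2bKO points of Fads2 (3.75 and 4.08 CPM) and Lss (49.1 and 48.0 CPM) lie left of all 8 controls.

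In the mevalonate steps 6 of 7 genes rose. Idi1, which interconverts the isoprenoid building blocks, had a lowest, median and highest level of 109, 128 and 172 CPM in the controls, against 42.7, 55.4 and 67.0 CPM in the naive libraries. The groups did not overlap, and the log2 fold change was 1.24 ± 0.11 (SE; edgeR adjusted p = 1.38e-08). Pmvk, the phosphomevalonate kinase, stood at 37.9, 42.9 and 48.6 CPM in the controls (lowest, median, highest), against 16.5, 20.9 and 25.4 CPM in the naive libraries. Its groups did not overlap either, with a log2 fold change of 1.04 ± 0.08 (SE; edgeR adjusted p = 4.04e-09). Acat2, which makes acetoacetyl-CoA, and Fdps, the farnesyl diphosphate synthase, rose by 0.79 and 0.74 on the log2 scale. Hmgcs1, which makes HMG-CoA, rose by 0.40. Mvk, the mevalonate kinase, was at 10.4 ± 0.761 CPM in the controls and 9.22 ± 0.852 CPM in the naive libraries (SD, n = 8 each), and its edgeR adjusted p of 0.0498 was lost without naive library 1, 3, 4, 5 or 7 (adjusted p 0.0601 to 0.0975). Mvd, the mevalonate diphosphate decarboxylase, had 21.3 ± 2.64 CPM in the controls and 20.3 ± 1.18 CPM in the naive libraries and did not pass.

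In the steps from the making of squalene onward 8 of 11 genes rose and Dhcr7 fell. Sqle, the squalene epoxidase, stood at 99.6, 112.3 and 153 CPM in the controls (lowest, median, highest), against 25.8, 46.4 and 64.6 CPM in the naive libraries. It had the largest log2 fold change of the sterol genes described here, 1.34 ± 0.14 (SE; edgeR adjusted p = 1.29e-07), with no overlap. Cyp51, the lanosterol demethylase, had 105, 115 and 158 CPM in the controls, against 50.5, 67.98 and 76.4 CPM in the naive libraries, a log2 fold change of 0.88 ± 0.09 (SE; edgeR adjusted p = 7.79e-08). Lss, the lanosterol synthase, rose by 0.88 and Fdft1, the squalene synthase, by 0.69. Ebp, Sc5d, Nsdhl and Hsd17b7, which act between lanosterol and cholesterol, rose by 0.35 to 0.40. Dhcr7, the reductase of 7-dehydrocholesterol, was lower at 45.0 ± 2.89 CPM in the controls, against 51.0 ± 2.75 CPM in the naive libraries (SD, n = 8 each). Its log2 fold change was -0.18 ± 0.05 (SE; edgeR adjusted p = 0.00261), and the call was lost once trends with exon length and GC were removed (adjusted p = 0.069). Msmo1, a methylsterol oxidase, and Tm7sf2, a sterol reductase, had log2 fold changes of 0.18 and 0.11 and did not pass. Msmo1 passed without control 1, control 2 or naive library 6 (edgeR adjusted p 0.0186 to 0.0298).

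Among the regulators, Srebf2 rose and Srebf1 and Insig1 did not pass. Srebf2, which encodes the SREBP that mainly drives sterol genes, had 143, 174 and 203 CPM in the controls (lowest, median, highest), against 125, 149.7 and 164 CPM in the naive libraries. The groups overlapped, and the log2 fold change was 0.27 ± 0.07 (SE; edgeR adjusted p = 0.0017). Against the naive libraries, controls 1 and 2 alone gave 0.14 for Srebf2 and 0.16 for Hmgcs1, and neither passed (adjusted p = 0.281 and 0.195). Nsdhl did not pass there either (0.28, adjusted p = 0.0569). Srebf1, which encodes the SREBPs that mainly drive fatty acid genes, had 106, 129 and 143 CPM in the controls, against 123, 133 and 147 CPM in the naive libraries, and the groups overlapped. Insig1, whose product retains SREBPs in the endoplasmic reticulum, had 11.8, 17.0 and 21.2 CPM in the controls, against 12.2, 15.3 and 17.1 CPM in the naive libraries, also with overlap, and it passed without control 1 (adjusted p = 0.0378). Stard4, a carrier of cholesterol between membranes, had 41.6, 48.6 and 50.7 CPM in the controls, against 19.0, 23.0 and 26.2 CPM in the naive libraries. It rose without overlap, by 1.03 ± 0.07 on the log2 scale (SE; edgeR adjusted p = 5.99e-10).

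Of the fatty acid genes 6 of 8 rose, Elovl6 fell and Scd1 did not pass. Fads2, the desaturase that begins the making of long polyunsaturated fatty acids, had 10.1, 19.1 and 40.9 CPM in the controls (lowest, median, highest), against 0.556, 2.27 and 3.99 CPM in the naive libraries. The groups did not overlap, and the log2 fold change of 3.30 ± 0.36 was the largest of the 30 genes (SE; edgeR adjusted p = 1.58e-07). The controls themselves spread 4.04-fold for Fads2, the widest spread among the 30 genes, with controls 6 and 7 highest and controls 1 and 2 lowest. Fads1, the desaturase of a later step of the same route, had 32.5, 43.0 and 53.6 CPM in the controls, against 17.3, 22.6 and 23.5 CPM in the naive libraries, and rose by 0.98 ± 0.09 on the log2 scale (SE; edgeR adjusted p = 1.82e-08). Acaca, the acetyl-CoA carboxylase that makes malonyl-CoA, had 15.4, 20.2 and 22.2 CPM in the controls, against 7.81, 9.94 and 11.3 CPM in the naive libraries. It rose without overlap by 1.02 ± 0.09 (SE; edgeR adjusted p = 1.93e-08). Fasn, the fatty acid synthase, rose by 0.86, Scd2, a stearoyl-CoA desaturase, by 0.76 and Acly, which supplies cytosolic acetyl-CoA, by 0.42. Elovl6, which elongates saturated and monounsaturated fatty acids, was lower at 14.3 ± 2.01 CPM in the controls, against 18.1 ± 1.56 CPM in the naive libraries (SD, n = 8 each), a log2 fold change of -0.34 ± 0.09 (SE; edgeR adjusted p = 0.00179). Its libraries did not overlap between the groups. Scd1 had a log2 fold change of 0.69 ± 0.42 (SE; edgeR adjusted p = 0.148) and passed without naive library 8 (0.97, adjusted p = 0.0443).

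Per kilobase of exon, the mean levels of the 30 genes in the controls ran from 80.0 CPM for Acly to 0.272 CPM for Scd1. Ebp, Acat2, Idi1 and Fdps followed Acly at 48.2, 41.3, 38.6 and 30.1 CPM per kilobase. Acaca was next to last at 1.17 CPM per kilobase, over an exon length of 17074 bases. Hmgcs1, Idi1, Fdft1, Lss, Cyp51, Srebf1 and Elovl6 share 34 to 774 exon bases with a gene on the opposite strand. Fdps, Tm7sf2, Srebf1 and Scd2 share 1124, 532, 66 and 61 with one on their own strand (Gm43738, Vps51, Mir6922 and Mir5114). Counting by strand is not stated, so part of their reads may belong to the partner.

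**Figure D2:**
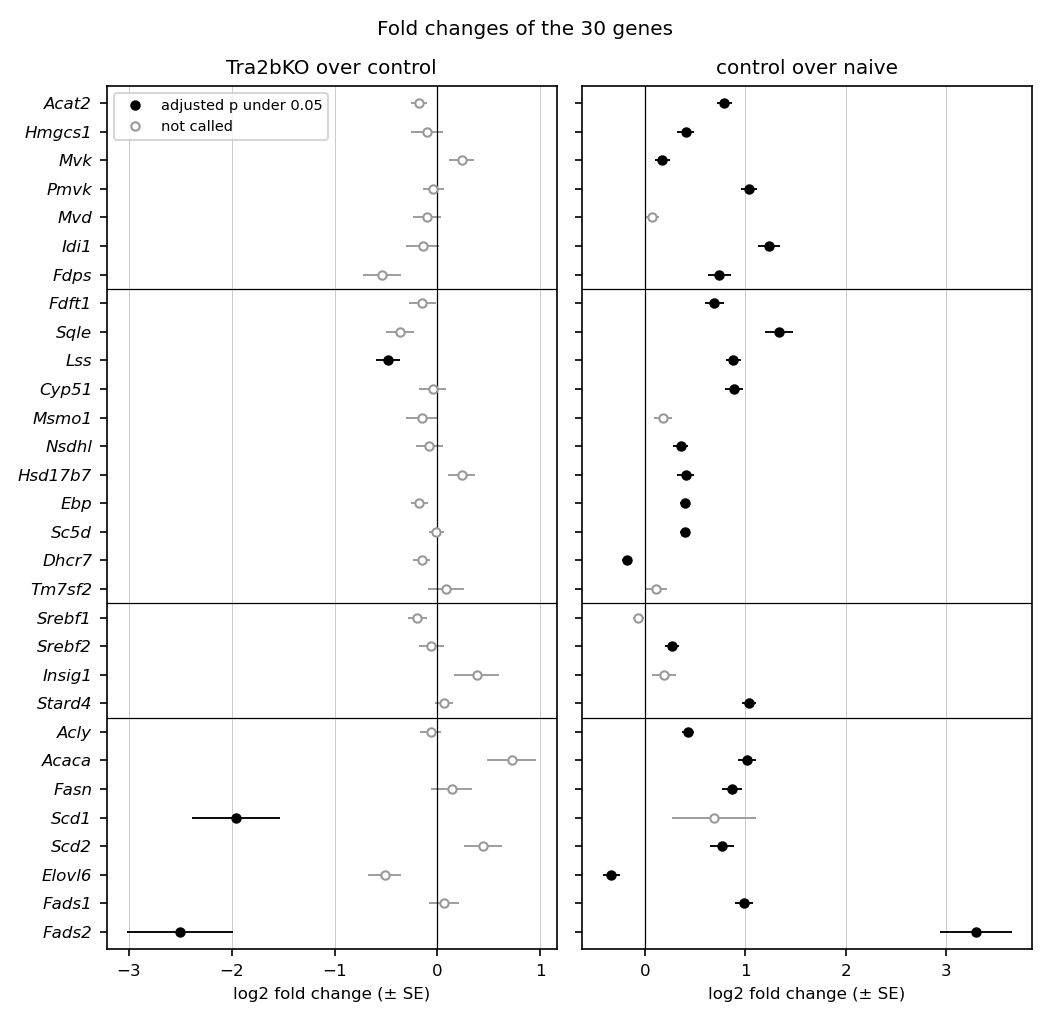
Log2 fold change of each gene, with its SE, for Tra2bKO over control (left, 2 against 8 libraries) and control over naive (right, 8 against 8); filled points passed an adjusted p of 0.05. On the right 22 filled points lie above 0 and 2 below, and on the left Lss, Scd1 and Fads2 are filled, all below 0.

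Promoter sequence was available for 23 of the 30 genes (RefSeq, GRCm38.p6, 250 bases before to 50 after the start site). The motif TCACNCCAC, a form of the sterol regulatory element bound by SREBPs, was searched with CCAAT (bound by NF-Y), GGGCGG (the GC box) and CACGTG (an E-box), on both strands. TCACNCCAC was found for 1 of 23 genes (4.35%), against 1.44% of all 27025 genes with a window and 1.33% of the 10487 that were also tested between control and naive libraries. CCAAT was found for 19 of 23 (82.6%), against 41.1% of all and 42.8% of the tested genes. GGGCGG was also found for 19 of 23, against 38.2% of all and 65.9% of the tested genes, and CACGTG for 4 of 23 (17.4%), against 8.09% and 11.5%. Of the 3 genes called between Tra2bKO and control libraries, Lss and Fads2 had a window and no TCACNCCAC match, and Scd1 had no window. The windows below were therefore chosen after their values were seen. Hmgcs1 (chr13:119690101-119690400, plus strand) is shown as the gene with the TCACNCCAC match. Lss (chr10:76531355-76531654, plus strand) and Fads2 (chr19:10101454-10101753, minus strand) are shown because they were lower in the Tra2bKO libraries. Each is given 5′ to 3′ on the strand of the gene, with matches on either strand in capitals, so that ATTGG marks CCAAT and CCGCCC marks GGGCGG on the other strand.
Hmgcs1: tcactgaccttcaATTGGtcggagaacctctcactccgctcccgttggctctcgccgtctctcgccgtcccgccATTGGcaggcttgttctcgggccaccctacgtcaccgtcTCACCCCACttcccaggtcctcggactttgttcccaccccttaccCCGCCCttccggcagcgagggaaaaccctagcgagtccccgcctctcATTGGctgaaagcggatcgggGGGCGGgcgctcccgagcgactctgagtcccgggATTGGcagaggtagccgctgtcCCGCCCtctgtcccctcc
Lss: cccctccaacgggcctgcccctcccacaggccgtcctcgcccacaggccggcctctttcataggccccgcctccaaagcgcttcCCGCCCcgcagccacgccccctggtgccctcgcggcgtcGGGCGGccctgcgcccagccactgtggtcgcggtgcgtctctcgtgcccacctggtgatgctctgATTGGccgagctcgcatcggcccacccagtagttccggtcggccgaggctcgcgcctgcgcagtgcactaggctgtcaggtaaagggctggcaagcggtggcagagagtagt
Fads2: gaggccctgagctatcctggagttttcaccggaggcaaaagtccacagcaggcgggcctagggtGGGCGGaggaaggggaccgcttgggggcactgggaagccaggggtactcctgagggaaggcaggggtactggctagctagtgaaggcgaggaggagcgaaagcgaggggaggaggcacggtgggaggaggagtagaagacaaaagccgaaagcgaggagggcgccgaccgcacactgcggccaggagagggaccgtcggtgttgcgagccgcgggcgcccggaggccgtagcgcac
The Hmgcs1 window holds TCACCCCAC starting 137 bases before the start site, 4 matches to CCAAT and 3 to GGGCGG. The Lss window holds 1 match to CCAAT and 2 to GGGCGG. The Fads2 window holds 1 match to GGGCGG and none of the other letters searched. No matches of different motifs overlap in these windows, and a match is a description of letters, not of binding.

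Few of the genes passed the test between Tra2bKO and control libraries. Of 30 genes, Lss, Scd1 and Fads2 fell and 0 rose, against 7.24% of all 18651 genes tested called lower, 7.62% called higher and 14.9% in either direction. The share called lower was thus near the background. At an unadjusted p under 0.05 in edgeR 2 genes were higher and 7 lower, against 14.8% and 14.6% of all genes. DESeq2 called 1 higher (Acaca) and 5 lower, with Fdps and Elovl6 added, against 10.4% and 9.9% of all genes. The median log2 fold change was -0.09 for the 30 genes and -0.01 for all genes. The libraries did not overlap for 5 genes that were lower in Tra2bKO (Acat2, Sqle, Lss, Scd1 and Fads2), 12.9% being the share over all genes, and for 0 that were higher, against 10.9%. Controls 3 to 8 alone gave 4 of the 30 genes lower, where 1346 of all 18455 genes tested were called lower, and a median of -0.13. Controls 1 and 2 alone gave 0 lower and a median of 0.10. Of all 16945 genes tested there, edgeR called 5, with 2811 at an unadjusted p under 0.05. With so few calls over all genes, a call lost in this fit cannot tell a smaller change from too few libraries. The labels do not set controls 1 and 2 apart, and this split was chosen with earlier results of these data known. Leaving out either Tra2bKO library left 1 library in that group. Lss then gave -0.507 without library 1 and -0.452 without library 2, and Ebp gave -0.338 without library 1.

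Fads2 had 3.75 and 4.08 CPM in the Tra2bKO libraries, against a lowest, median and highest level of 10.1, 19.1 and 40.9 CPM in the controls and 0.556, 2.27 and 3.99 CPM in the naive libraries. Both Tra2bKO libraries lay below every control. Library 1 lay within the naive range and library 2 just above its highest value. The log2 fold change was -2.50 ± 0.52 for Tra2bKO over control (SE; edgeR adjusted p = 0.00818), and 0.83 ± 0.47 for Tra2bKO over naive (adjusted p = 0.174). Against controls 1 and 2, which had 10.1 and 13.9 CPM, the log2 fold change was -1.60 and did not pass (adjusted p = 0.0921). The call was also lost without Tra2bKO library 1 (-2.45, adjusted p = 0.074), without Tra2bKO library 2 (-2.55, adjusted p = 0.132) and in limma voom (-2.44, adjusted p = 0.0747).

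Fads2 (ENSMUSG00000024665.8) lies on chromosome 19 of GRCm38 from 10062765 to 10101746 on the minus strand, between Fads3 (10041569 to 10060110) and Fads1 (10182888 to 10196877), both on the plus strand. Fads1 did not pass, with 39.9 and 48.8 CPM in the Tra2bKO libraries, against 42.6 ± 6.08 CPM in the controls (SD, n = 8), and a log2 fold change of 0.06 ± 0.14 (SE; edgeR adjusted p = 0.825). Fads3, a homologous desaturase gene picked after its values were seen, had 0 counts in both Tra2bKO libraries, against 11 to 47 counts in each control and 0 to 26 in the naive libraries. With a floor of 3 counts over both Tra2bKO libraries it was at least 17.8-fold lower than the pooled controls, a bound on counting error only (edgeR adjusted p = 0.00209).

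Scd1 (ENSMUSG00000037071.3; chromosome 19 of GRCm38, 44394455 to 44407879, minus strand), a stearoyl-CoA desaturase, had 0.436 and 0.209 CPM in the Tra2bKO libraries, against 0.698, 1.21 and 2.13 CPM in the controls (lowest, median, highest) and 0.0794, 0.819 and 1.80 CPM in the naive libraries. The log2 fold change for Tra2bKO over control was -1.96 ± 0.43 (SE; edgeR adjusted p = 0.0105). These levels rest on 34 and 19 counts in the Tra2bKO libraries and on 52 to 192 in the controls. Its paralog Scd2 stood at 159.9 and 276.7 CPM in the Tra2bKO libraries and at 161 ± 26.1 CPM in the controls (SD, n = 8), and how reads shared by the 2 genes were divided is not given in the sources used here, so Scd1 is uncertain. The Scd1 call was lost without Tra2bKO library 2 (-1.54, adjusted p = 0.156) and against controls 1 and 2 alone (-1.62, adjusted p = 0.264). It was also lost with all groups in one fit (-1.97, adjusted p = 0.0892) and in limma voom (-2.10, adjusted p = 0.0949).

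Lss (ENSMUSG00000033105.12; chromosome 10 of GRCm38, 76531588 to 76557138, plus strand) had 49.1 and 48.0 CPM in the Tra2bKO libraries, against 57.6, 66.3 and 77.1 CPM in the controls (lowest, median, highest) and 29.7, 37.8 and 42.1 CPM in the naive libraries. Both Tra2bKO libraries lay between the control and naive ranges. The log2 fold change for Tra2bKO over control was -0.48 ± 0.12 (SE; edgeR adjusted p = 0.0171), and for Tra2bKO over naive it was 0.43 ± 0.11 (adjusted p = 0.009). The call against the controls was lost without Tra2bKO library 1 (adjusted p = 0.0627), without Tra2bKO library 2 (adjusted p = 0.158) and against controls 1 and 2 alone (-0.33, adjusted p = 0.341). Lss shares 381 exon bases with the antisense gene 4930483K19Rik.

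**Figure D3:**
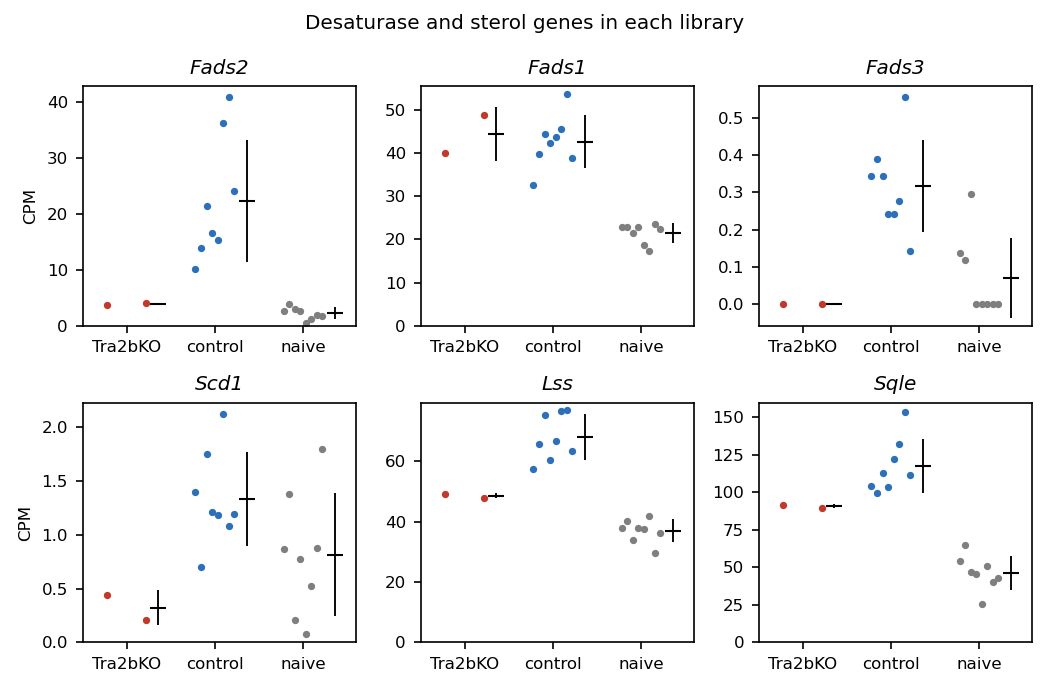
Level in CPM of Fads2, Fads1, Fads3, Scd1, Lss and Sqle in each Tra2bKO (red), control (blue) and naive (grey) library; black marks give the mean and SD of each group. The 2 Tra2bKO libraries of Fads2 lie below all 8 controls, and those of Fads1 lie within the control range.

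Several genes came near the threshold, in both directions. Acaca had 18.01 and 47.9 CPM in the Tra2bKO libraries, against 15.4 to 22.2 CPM in the controls (log2 fold change 0.72 ± 0.24, SE; edgeR adjusted p = 0.0654), with library 2 above every control and library 1 within their range. Elovl6 had 10.2 and 9.63 CPM in the Tra2bKO libraries, against 9.83 to 15.7 CPM in the controls (log2 fold change -0.51 ± 0.16, SE; edgeR adjusted p = 0.0533). Control 1 is the control at 9.83 CPM, and Elovl6 passed without it (adjusted p = 0.00612). Fdps had 95.9 and 77.4 CPM in the Tra2bKO libraries, against 95.6 to 169.9 CPM in the controls (-0.54 ± 0.19, SE; edgeR adjusted p = 0.0754), and passed without control 4 (adjusted p = 0.0438). Sqle had 91.6 and 89.8 CPM in the Tra2bKO libraries, against 99.6 to 153 CPM in the controls, and it did not pass although the groups did not overlap (-0.37 ± 0.14, SE; edgeR adjusted p = 0.101).

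The regulators did not pass between Tra2bKO and control libraries. Srebf1 had 112.5 and 109 CPM in the Tra2bKO libraries, against 106 to 143 CPM in the controls, and Srebf2 had 145 and 192 CPM, against 143 to 203 CPM. Insig1 had 17.9 and 26.35 CPM, against 11.8 to 21.2 CPM in the controls. Stard4 had 49.4 and 48.8 CPM, against 41.6 to 50.7 CPM. Their log2 fold changes lay between -0.20 and 0.38. Scd2 had a log2 fold change of 0.44 ± 0.18 (SE; edgeR adjusted p = 0.133) and Fasn of 0.14 ± 0.20 (adjusted p = 0.703). The remaining 16 genes, all uncalled, lay between -0.18 and 0.23. Among them Idi1 had 131.5 and 112 CPM in the Tra2bKO libraries, against 109 to 172 CPM in the controls, and Cyp51 had 117 and 120 CPM, against 105 to 158 CPM.

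Among the 30 genes, the 2 Tra2bKO libraries differed most from each other in genes of fatty acid synthesis. They also differed over all genes compared. A chi-square per gene, which grows as 2 libraries depart from sampling noise, was 153.5 between them. Pairs of controls gave 20.7 to 96.5 and pairs of naive libraries 25.7 to 199.9. Acaca had 18.01 CPM in Tra2bKO library 1 and 47.9 CPM in library 2. Fasn had 191 and 383 CPM, against 213 to 322 CPM, and Scd2 had 159.9 and 276.7 CPM, against 126.5 to 198 CPM in the controls. Library 2 thus lay above every control for all 3 genes, and library 1 lay within the control range for Acaca and Scd2 and below it for Fasn. The ratio of library 2 to library 1 was 2.66 for Acaca, 2.005 for Fasn and 1.73 for Scd2, and these were the 3 of the 30 genes over 1.5-fold higher in library 2, with Scd1 the 1 gene over 1.5-fold lower. Without library 1 Acaca passed as higher (log2 fold change 1.25, edgeR adjusted p = 0.000419) and so did Scd2 (0.77, adjusted p = 0.0198), while without library 2 Acaca gave -0.14 and Fasn -0.44, neither passing. Of all 30 genes, 16 were higher and 14 lower in library 2 than in library 1. Neither these counts nor those over 1.5-fold were made over all genes. The erythroid list (such as Hbb-bs and Alas2) summed to 132.5 CPM in Tra2bKO library 1 and 13.4 CPM in library 2, against 0.443 to 17.5 CPM in the controls, with 5 of 6 measured genes called higher in Tra2bKO and none at 0 throughout the group. Its part in the difference between the Tra2bKO libraries was not tested.

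The controls also varied among themselves over the 30 genes. Counts above the control median were not made over all genes, so this is not told apart from general variation between libraries. Controls 1 and 2 were above the control median for 5 and 3 of the 30 genes, and control 4 for 6, while controls 3, 5, 6 and 7 were above it for 22, 21, 25 and 27. Tra2bKO libraries 1 and 2 were above the control median for 8 and 14. The NK cell list, which includes Gzma and Eomes that CD8+ T cells also express, summed to 157 and 167 CPM in the Tra2bKO libraries, to 177 and 178 CPM in controls 1 and 2, and to 49.7 to 88.2 CPM in controls 3 to 8. Sums of the dendritic cell and macrophage list were 82.8 and 96.9 CPM in the Tra2bKO libraries, against 38.5 to 63.5 CPM in the controls. Those of the B cell list were 31.5 and 33.6 CPM, against 14.4 to 28.6 CPM, and those of the stromal and endothelial list were 46.6 and 50.6 CPM, against 26.2 to 45.8 CPM. The Tra2bKO and control sums of these 3 lists did not overlap, while 0 of 8, 0 of 8 and 0 of 2 measured genes were called. Few genes made up these sums, so they do not stand for the lists as a whole. In the Tra2bKO libraries Itgax (34.9 and 47.4 CPM) and Lyz2 (47.2 and 22.2 CPM) led the dendritic cell and macrophage list. Pecam1 alone gave 46.4 and 50.4 CPM of the stromal and endothelial list. Cd22 led the B cell list at 21.7 and 28.7 CPM, against 4.20 to 17.7 CPM in the controls. Cd79b went the other way, at 5.61 and 3.40 CPM, against 5.99 to 9.41 CPM. Siglech was at 0 in both groups and Ebf1, Col1a2, Col3a1 and Pdgfra in the Tra2bKO libraries. The CD4 T cell list summed to 3.77 and 4.71 CPM in the Tra2bKO libraries. It summed to 4.42 and 8.66 CPM in controls 1 and 2, and to 12.6 to 20.8 CPM in controls 3 to 8. In controls 3 to 8 most of it was Zbtb7b (6.91 to 12.5 CPM) and Cd40lg (4.54 to 9.46 CPM). Cd4 itself had 0.205 and 0.692 CPM in the Tra2bKO libraries, against 0 to 0.603 CPM in the controls. Foxp3 had 0.270 and 0.242 CPM, against 0.169 to 0.372 CPM. No gene of the NK and CD4 lists apart from Klra8 was at 0 in every control, and 0 of 5 and 1 of 4 measured genes were called lower in Tra2bKO. The part of all these lists in the result was not tested. In bulk libraries fewer cells expressing a gene and less RNA per cell cannot be told apart.

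Tra2bKO and naive libraries were also compared, in a fit that shares its libraries with both comparisons above. Of the 30 genes 18 were higher and 3 were lower (Dhcr7, Elovl6 and Srebf1), where 44.7% of all 19776 genes tested were called, 21.1% being higher and 23.6% lower. The median log2 fold change was 0.43. Of the marker lists 6 of 6 CD8 T cell genes, 5 of 6 NK, 5 of 10 dendritic cell and macrophage and 4 of 10 B cell genes were lower in Tra2bKO, 0 of them higher. In the other lists 2 of 6 erythroid genes were higher and 0 lower, and 1 of 4 CD4 T cell genes was higher and 1 lower. Of platelet genes 2 of 4 were lower, of stromal and endothelial genes 1 of 3, and 0 of 4 neutrophil genes were called. The part of all these lists in the result was not tested. Genes at Tra2bKO levels well above naive included Stard4, at 49.4 and 48.8 CPM in the Tra2bKO libraries, against 23.1 ± 2.49 CPM in the naive libraries (SD, n = 8), and Pmvk, at 43.3 and 40.9 CPM, against 21.2 ± 2.66 CPM. Insig1 was higher at 17.9 and 26.35 CPM, against 12.2 to 17.1 CPM in the naive libraries, without overlap (log2 fold change 0.59 ± 0.16, SE; edgeR adjusted p = 0.00934), and the call was lost without Tra2bKO library 2 (0.31, adjusted p = 0.267). Hmgcs1, Hsd17b7, Srebf1, Acly and Fasn also lost their calls without Tra2bKO library 2 (adjusted p 0.0877 to 0.189). Mvk, Fdft1, Lss, Dhcr7 and Srebf1 lost theirs without library 1 (adjusted p 0.0579 to 0.279), which left 1 gene lower.

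At the level of transcripts, usage within a gene was tested for members with at least 2 transcripts past the filter. Between control and naive libraries it changed for 8 of 22 (Acaca, Elovl6, Fads1, Fdps, Hmgcs1, Lss, Msmo1 and Srebf2), against 44.9% of all 8581 genes tested (edgeR diffSpliceDGE with Simes test, adjusted p under 0.05). In 7 of these 8 the transcript with the smallest p was annotated as a retained intron, with a lower share of its gene in the controls than in the naive libraries. Over all 3856 genes called, 61.7% had such a transcript in front, so this was common. Fdps-205, for example, had 2.65 ± 0.696 CPM in the controls and 3.66 ± 0.555 CPM in the naive libraries (SD, n = 8 each), while Fdps as a whole was higher in the controls. Elovl6 was the exception, with the protein-coding Elovl6-201 at 4.38 ± 1.87 CPM in the controls and 12.7 ± 4.27 CPM in the naive libraries, and Elovl6-205 at 7.68 to 13.0 CPM in the controls and 1.15 to 11.1 CPM in the naive libraries.

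Between Tra2bKO and control libraries usage changed for 0 of 23 members in edgeR diffSpliceDGE, against 3.22% of all 9653 genes. At an unadjusted p under 0.05 there were 2 of 23 (Acat2 and Acly), a count not made over all genes, so it has no background here. The diffSplice test of limma called 2 of 23, against 9.2% of all genes. Nearly all Fads2 counts belonged to Fads2-201, at 3.75 and 4.08 CPM in the Tra2bKO libraries and 10.1 to 40.9 CPM in the controls. Srebf1-201 made up 91.7 and 98.6% of Srebf1 in the Tra2bKO libraries and 83.0 to 95.9% in the controls. For other genes, whose transcripts were picked after their values were seen, some estimates were at 0 in part of a group. Acaca-201 was listed at 20.4 CPM in Tra2bKO library 2 and 12.4 CPM in control 7 and at 0 in the other 16 libraries. Acat2-204 was listed at 0 in both Tra2bKO libraries and in controls 1 and 3, and at 33.6 to 58.5 CPM in the other controls. Acly-207 had 114 and 132 CPM in the Tra2bKO libraries, 160 CPM in control 7 and 12.4 to 40.7 CPM in the other controls. Hmgcs1-201 made up 93.8 and 37.7% of Hmgcs1 in Tra2bKO libraries 1 and 2, against 39.4 to 90.6% in the controls. How reads shared by transcripts were divided is not given in the sources used here, and the values are the deposited estimates.

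**Figure D4:**
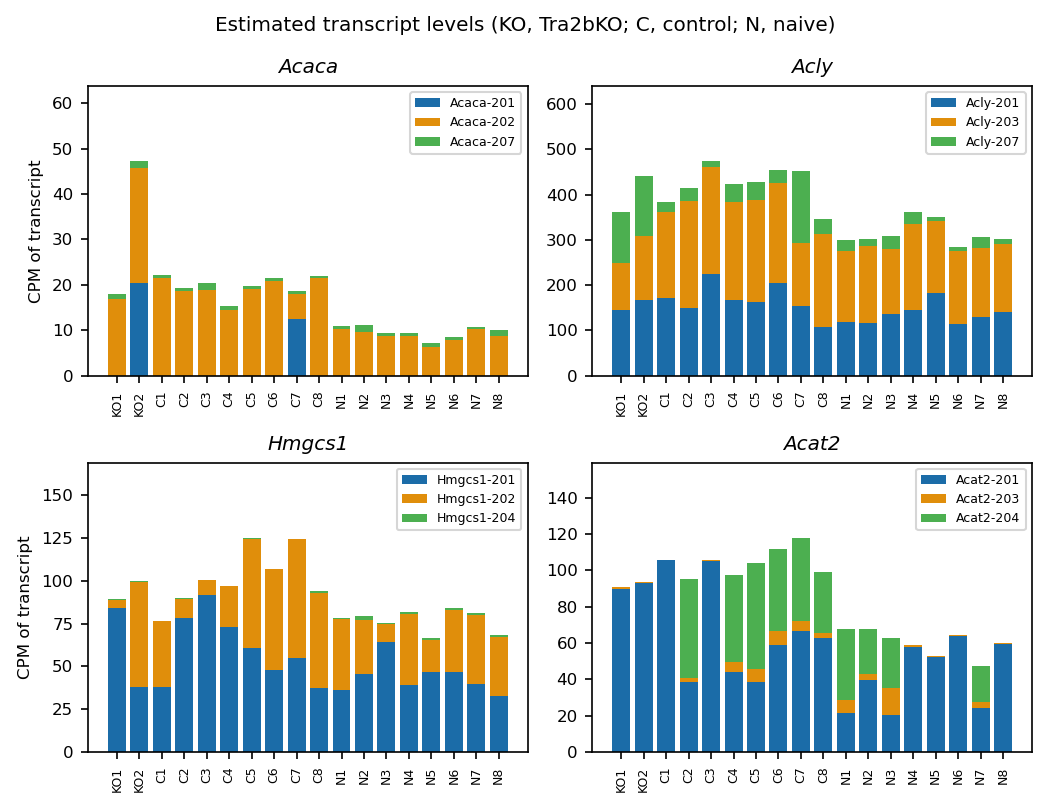
Estimated level in CPM of the 3 most abundant transcripts of Acaca, Acly, Hmgcs1 and Acat2 in each library, stacked, with Tra2bKO libraries on the left, then controls, then naive libraries. Acaca-201 appears in Tra2bKO library 2 (20.4 CPM) and control 7 (12.4 CPM), and Acat2-204 is missing from both Tra2bKO libraries and from controls 1 and 3.

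Genes outside the 30 were read from 6 further lists, with 41 of 84 measured genes higher and 25 lower between control and naive libraries, against 32.5% higher and 39.0% lower over all genes. Between control and naive libraries, the list of sterol esterification, efflux and LXR targets had 1 of 10 measured genes higher and 7 lower. Its smallest p belonged to Abcg1, a sterol exporter, at 9.36 ± 1.70 CPM in the controls and 47.1 ± 5.06 CPM in the naive libraries (SD, n = 8 each; log2 fold change -2.33 ± 0.10, SE; edgeR adjusted p = 3.59e-12). In the list of sterol uptake and lysosomal transport 4 of 11 rose and 6 fell, among them Npc2, a lysosomal sterol carrier, with 80.8 ± 4.89 CPM in the controls and 234 ± 25.6 CPM in the naive libraries (edgeR adjusted p = 9.06e-13). Other sterol steps and SREBP processing had 4 of 9 higher and 1 lower, led by Erg28, a scaffold of sterol demethylation, with 104 ± 4.37 CPM in the controls and 69.3 ± 4.38 CPM in the naive libraries. Other fatty acid supply genes had 13 of 22 higher and 4 lower, led by Hacd3, a dehydratase of fatty acid elongation, with 211.9 ± 8.52 CPM in the controls and 128 ± 7.33 CPM in the naive libraries. Non-sterol isoprenoid genes had 8 of 13 higher and 3 lower, with the smallest p for Rabggta, a subunit of the Rab prenyltransferase, at 36.6 ± 3.88 CPM in the controls and 79.0 ± 9.01 CPM in the naive libraries. Fatty acid oxidation genes had 11 of 19 higher and 4 lower, led by Echs1, an enoyl-CoA hydratase, with 99.8 ± 4.45 CPM in the controls and 62.1 ± 3.41 CPM in the naive libraries.

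Between Tra2bKO and control libraries 19 of 86 measured genes of the same lists were called (22.1%), 9 higher and 10 lower, against 14.9% of all genes. Abcg1 was higher, at 19.0 and 17.5 CPM in the Tra2bKO libraries, against 9.36 ± 1.70 CPM in the controls (SD, n = 8; log2 fold change 0.97 ± 0.17, SE; edgeR adjusted p = 0.00355), and 1 more of the 10 genes of its list was called, as lower. Elovl5, an elongase of polyunsaturated fatty acids, was higher at 199.5 and 210.2 CPM, against 145 ± 10.6 CPM in the controls (0.50 ± 0.07, SE; edgeR adjusted p = 0.00155), and its list had 4 of 24 higher and 4 lower. Mbtps2, a protease that frees SREBPs, was higher at 30.9 and 40.1 CPM, against 24.6 ± 3.20 CPM in the controls (adjusted p = 0.023), while Erg28 was lower, and the other 7 of 9 genes of that list did not pass. Decr1, an accessory reductase of fatty acid oxidation, was higher at 40.8 and 36.2 CPM, against 24.3 ± 1.45 CPM (adjusted p = 0.000915), in a list with 2 of 19 higher and 2 lower. Pdss2, a subunit that makes the tail of coenzyme Q, was lower at 8.64 and 7.62 CPM, against 14.6 ± 1.46 CPM (adjusted p = 0.00216), with 1 of 13 higher and 1 lower in its list. Gramd1b, a sterol transporter at membrane contacts, was lower at 56.2 and 53.8 CPM, against 71.3 ± 5.87 CPM (adjusted p = 0.0243), the 1 call among 11 genes of uptake and transport.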

How the data were processed

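RNA sequencing had been done on 18 libraries, prepared with a micro-scale RNA column kit and a polyA-based low-input kit per the labels. The deposited tables hold estimated counts per gene and per transcript as whole numbers, and in all 55536 genes the gene value equals the sum of its transcripts. The submitters' processing notes list, with no role or order, StringTie 2.1.0, STAR 2.7.1a, DESeq2 1.30.1, R 4.0.5, SAMtools 1.9 and both mm10 and mm39. Gene identifiers were matched to GENCODE M21 (GRCm38). Rows with numeric identifiers (0.0513 to 0.132% of the counts) name no gene and were left out.

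Genes were filtered with filterByExpr (minimum count 10), scaled by TMM within each comparison and tested in R 4.3.3 with the quasi-likelihood test of edgeR 4.0.16 (robust fit; prior count 2), adjusted by Benjamini-Hochberg over all genes tested and called under 0.05. Levels are CPM on TMM factors of all 18 libraries. SE belongs to a log2 fold change and SD to the libraries of a group. Usage of transcripts came from diffSpliceDGE, with Simes p-values for each gene. Precision of low genes is limited by counts, and bounds use a floor of 3 counts. The tests were also run on simulated counts with known changes, and the outcomes are not reported here.

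Named genes are the 30 members, and from each further list the genes with the smallest p in each of 2 comparisons. Values in every library or by lowest, median and highest were planned for members called between Tra2bKO and control, the 8 largest changes between control and naive, Srebf1, Srebf2 and Insig1. The members, lists and alternatives were chosen with earlier results of these data known. Alternatives were DESeq2 1.42.0, limma 3.58.1 voom with quality weights, RLE factors, unscaled totals, no filter, all groups in one fit, trends with exon length and GC removed, the replicate number as a block, controls 1 and 2 or 3 to 8 alone, and leaving out each library. No 2 libraries agreed within sampling noise.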

Additional observations from a re-analysis of the deposited data

Results flagged for a closer look

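In groups of 8 libraries, the highest or lowest library was set against the rest by Dixon's test at the 95% level for each of the 30 genes in the control and in the naive group. Of 60 groups 2 were marked, and chance alone marks about 5%. Cyp51 stood at 50.45 CPM in naive library 5, below the 64.8 to 76.4 CPM of the other naive libraries. This library was above the naive median for 3 of the 30 genes, the fewest of the naive libraries. Elovl6 stood at 9.831 CPM in control library 1, below the 13.0 to 15.7 CPM of the other controls and beside the 10.2 and 9.63 CPM of the Tra2bKO libraries.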

How the results depend on the processing

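All alternatives were planned, though with earlier results of these data known. Between control and naive libraries, leaving out 1 library at a time gave 21 to 24 of the 30 genes higher, 2 lower, a median log2 fold change of 0.48 to 0.60, 11976 to 12243 genes called and 7 to 9 members with changed transcript usage. Removing the trends with length and GC left 1 gene lower. Mvk lost its call under 5 alternatives. Between Tra2bKO and control libraries, leaving out 1 library at a time gave 651 to 2858 genes called, 0 to 2 members higher, 0 to 4 lower, medians of -0.11 to -0.05 and 0 to 2 members with changed usage. Members called higher came to 1 with all groups in one fit (Acaca), where 1693 of 20750 genes were called higher. They came to 1 with DESeq2 (Acaca, 10.4% of all genes) and 1 with the length and GC trends removed (Mvk, 1215 of 18651 genes). All groups in one fit also called Fdps and Elovl6 lower (edgeR adjusted p = 0.0495 and 0.0195) and lost Scd1. Members called lower came to 5 with DESeq2 (9.9% of all genes) and 1 with limma voom (694 of 18651 genes). They came to 0 against controls 1 and 2 alone, where 5 genes were called and the median was 0.10. Usage changed for 2 members in limma's diffSplice (9.2% of all genes) and for 1 of 27 with transcripts of 10 counts in total (4.88% of all genes). Between Tra2bKO and naive libraries, leaving out 1 library at a time gave 6766 to 8986 genes called, 15 to 18 members higher, 1 to 3 lower and medians of 0.38 to 0.45. Hmgcs1 lost its call there with all groups in one fit, with the length and GC trends removed and with unscaled totals (adjusted p 0.0819 to 0.0956), Mvk with unscaled totals (0.0787) and Srebf1 with the trends removed (0.146). Unscaled totals gave a median of 0.316 there and moved the median of all genes from -0.0836 to -0.194.

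With the replicate number as a block, Tra2bKO against control gave 0 genes called in edgeR (3536 at an unadjusted p under 0.05), 0 members lower, a median of 0.0789 and 6 of 23 members with changed usage, against 17.8% of all genes, and only controls 1 and 2 inform that contrast. The same block gave 3322 genes called, 6 members higher and 1 lower for Tra2bKO against naive. The numbers were not treated as pairs, since libraries of the same number correlated at -0.025 to 0.032 between control and naive, with 1 of 8 correlating best with its own number, and at 0.010 and 0.051 between Tra2bKO and control. In none of these fits was the cause of a change tested.

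Directions turned only for log2 fold changes that were uncalled in both fits. For control over naive, controls 1 and 2 alone gave -0.0892 for Mvd, -0.0752 for Msmo1, -0.161 for Tm7sf2 and -0.157 for Insig1. Controls 3 to 8 alone gave 0.00519 for Srebf1, the length and GC trends removed gave -0.0369 for Mvd and 0.0259 for Srebf1, and unscaled totals gave -0.0265 for Mvd. For Tra2bKO over control, controls 1 and 2 alone gave 0.194 for Hmgcs1, 0.0677 for Pmvk, 0.109 for Mvd, 0.0845 for Idi1, 0.0909 for Fdft1, 0.177 for Cyp51, 0.157 for Msmo1, 0.0497 for Nsdhl, 0.124 for Sc5d, 0.128 for Srebf2 and 0.0204 for Acly. The replicate block gave 0.179 for Hmgcs1, 0.0524 for Pmvk, 0.0889 for Mvd, 0.0644 for Idi1, 0.0689 for Fdft1, 0.159 for Cyp51, 0.136 for Msmo1, 0.0246 for Nsdhl, 0.107 for Sc5d and 0.10 for Srebf2. Controls 3 to 8 alone gave -0.00206 for Tm7sf2, DESeq2 gave 0.00374 and RLE factors 0.00389 for Sc5d, and the length and GC trends removed gave 0.155 for Pmvk, 0.133 for Mvd and -0.0399 for Stard4. For Tra2bKO over naive, Mvd was at 0.0118 with DESeq2, 0.0116 with RLE factors, 0.0714 with the length and GC trends removed and 0.00467 with the replicate block. Msmo1 was at -0.0978 with those trends removed and -0.0585 with unscaled totals, and Fdps was at -0.00621 with the block. Leaving out 1 library at a time, the ranges that crossed 0 for Tra2bKO over control were -0.0284 to 0.00351 for Sc5d, -0.0709 to 0.0156 for Cyp51, -0.264 to 0.116 for Srebf2, -0.204 to 0.056 for Acly, -0.0958 to 0.0077 for Pmvk, -0.286 to 0.10 for Nsdhl, -0.138 to 1.25 for Acaca, -0.436 to 0.546 for Fasn and -0.0794 to 0.191 for Fads1. For Tra2bKO over naive they were -0.0899 to 0.058 for Mvd and -0.085 to 0.176 for Msmo1. Low counts limit Scd1 and Fads3.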
